A study of Mus musculus with 12 samples.

Results

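Of 366 protein-coding genes named Zfp and a number in the deposited tables, 100 had a mean level of at least 2 FPKM (fragments per kilobase of gene length, scaled to the depth of the library) over 12 mouse heart libraries, and these 100 are described here. Zfp36, an RNA decay factor, and Zfp106, an RNA-binding protein, share the name but were left out of the list, and 264 genes lay under the threshold. The tables hold 52858 genes in all. The members were chosen by their mean FPKM in these libraries, so their level is given as a description. Just inside the threshold were Zfp638 (2.05 FPKM), Zfp326 (2.04) and Zfp608 (2.02), and just outside it were Zfp687 (1.99), Zfp319 (1.98) and Zfp948 (1.97).

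The hearts came from male mice 3 to 5 months old, excised and perfused through the aorta with a buffered salt solution. C57BL/6J mice are the background strain, and mice labelled Slit2-Tg carry a human Slit2 cDNA under a CMV promoter, which is not specific to a tissue or cell type, on a C57 background that began from C57 x CBA eggs. After 20 min of equilibration, the flow to IR hearts was stopped for 20 min (global ischemia) and restored for 40 min (reperfusion). Non-IR hearts were perfused for 80 min in total, so that all groups share the ex vivo perfusion. The 2 IR groups (C57-IR, Slit2-IR) and the 2 non-IR groups (C57-non-IR, Slit2-non-IR) have 3 libraries each, labelled as independent samples. Whether a heart had IR was read from the letters of the sample titles, and the genotype from the labels. In bulk heart RNA, fewer cells of a type and less RNA per cell cannot be told apart.

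A C2H2 zinc finger is a short protein fold held by a zinc ion between paired cysteines and histidines, and runs of such fingers read DNA. Many of these proteins also carry a KRAB domain, which binds TRIM28 (KAP1), and TRIM28 brings in SETDB1 and heterochromatin proteins that silence the DNA below. KRAB zinc finger genes often lie in clusters that arose by duplication, and many of their proteins bind transposable elements. Other ZFP proteins have few fingers and work on RNA, ribosomes or splicing, so the shared name is not a shared function.

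Libraries held 16601154 to 24841291 recovered reads on genes, and each member had at least 43 reads in every library. The level of mouse Slit2 was 0.0847 to 0.813 FPKM in hearts labelled Slit2-Tg and 0.180 to 0.282 FPKM in C57BL/6J hearts. The transgene is a human cDNA, so the mouse gene does not check the genotype, and directions between genotypes rest on the labels. Summed cardiomyocyte markers (Myh6, Tnnt2, Tnni3, Actc1, Myl2, Ryr2) were 12111 to 18519 FPKM in all libraries. In each group replicate 1 had the highest of these sums (16084 to 18519 FPKM, against 12111 to 14715 in the other libraries). Replicate 1 also had the lowest sum of macrophage markers, including Adgre1, Csf1r and C1qa (194 to 276 FPKM, against 298 to 441). What the replicate 1 libraries share was not tested. Slit2-IR replicate 1 stood apart with 1695 FPKM summed over 6 atrial markers, including Myl7, Sln and Nppa, against 26.6 to 240.4 in the others. Bmp10, an atrial marker of that list, stayed at or below 0.0131 FPKM in every library. Without this library the genes called after IR in Slit2-Tg hearts, over all genes tested, went from 68 higher and 12 lower to 5 higher and 0 lower. The drop was not particular to this library. Without Slit2-IR replicate 2 the counts were 4 and 0, and without 1 of the Slit2-non-IR libraries 7 to 12 and 0. Without Slit2-IR replicate 3 they were 79 and 12. Medians of the members without Slit2-IR replicate 1 stand beside those with it below, for the comparisons that use that library.

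By their annotated coding sequences, the members fell into 3 protein classes, drawn up after the values had been seen and used as description. A KRAB-like stretch was found in 31 members, which had a median of 11 C2H2 runs. Another 49 had 4 or more C2H2 runs and no KRAB stretch (median 9), and 20 had 0 to 3 runs (median 1). The largest number was 30 runs, in Zfp236, and 4 members had none of the pattern. Among genes under 2 FPKM, 195 of 262 with coding sequences held a KRAB-like stretch.

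Promoters of 4 members are shown with the bases before the transcript start, since these genes had the clearest falls (Zfp809 and Zfp740, both past the adjusted threshold after IR) and the smallest unadjusted p-values among the rises (Zfp326 and Zfp622). The sequences are RefSeq promoters of build GRCm38.p6, written 5′ to 3′, with any base inside an annotated exon left out. Capitals mark a GC box (GGGCGG or CCGCCC) or a CCAAT box (CCAAT or ATTGG) on either strand.
Zfp809, chr9:22225453-22225702, strand +: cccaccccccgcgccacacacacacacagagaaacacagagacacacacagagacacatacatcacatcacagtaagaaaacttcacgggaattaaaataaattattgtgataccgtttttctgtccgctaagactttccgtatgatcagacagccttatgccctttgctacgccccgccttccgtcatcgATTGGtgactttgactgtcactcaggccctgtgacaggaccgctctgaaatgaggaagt
Zfp740, chr15:102203894-102203999, strand +: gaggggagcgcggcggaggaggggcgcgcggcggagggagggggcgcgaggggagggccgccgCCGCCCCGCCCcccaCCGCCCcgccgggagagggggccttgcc
Zfp622, chr15:25984116-25984365, strand +: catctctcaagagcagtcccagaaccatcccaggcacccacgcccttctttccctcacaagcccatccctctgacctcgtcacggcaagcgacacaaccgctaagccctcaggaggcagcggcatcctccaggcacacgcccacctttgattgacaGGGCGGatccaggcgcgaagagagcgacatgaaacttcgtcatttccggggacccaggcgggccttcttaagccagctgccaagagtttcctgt
Zfp326, chr5:105876318-105876564, strand +: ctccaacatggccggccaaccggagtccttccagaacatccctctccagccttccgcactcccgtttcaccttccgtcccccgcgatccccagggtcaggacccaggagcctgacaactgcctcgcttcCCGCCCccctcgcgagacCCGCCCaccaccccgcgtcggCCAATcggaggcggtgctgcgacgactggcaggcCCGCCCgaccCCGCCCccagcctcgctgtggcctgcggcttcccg
Zfp809 held a single CCAAT box, Zfp740 3 GC boxes within 106 bases, Zfp622 a single GC box, and Zfp326 4 GC boxes and a CCAAT box. Each of these 2 falling genes has another RefSeq start. The stretch before that of Zfp809 (chr9:22225462-22225711) holds the single CCAAT box too, and the 135 bases before that of Zfp740 (chr15:102204436-102204570) hold neither box. The printed stretch of Zfp740 lies within a longer annotated gene body, downstream of another start of the same gene.

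RefSeq promoters matched 82 of the 100 members. Within 250 bases before the start, a GC box stood in 46 of them (56.1%), against 32.9% of 27025 promoters of all genes and 62.5% of 6583 promoters of protein-coding genes with at least 2 FPKM. A CCAAT box stood in 40 (48.8%), against 34.5% of all promoters and 36.2% of those expressed genes. By class, the CCAAT box was in 16 of 28 KRAB members, 19 of 39 many-fingered members and 5 of 15 few-fingered members, and the GC box was in 14, 20 and 12 of these. The TATA box (TATAAA or TTTATA) was in 4 members (4.88%, against 13.0% of all promoters and 6.41% of those of expressed genes), the cAMP response element (TGACGTCA) in 3 (3.66%, against 1.62% and 2.80%) and the YY1 core (AAGATGGC or GCCATCTT) in 2 (2.44%, against 1.59% and 1.96%). The 5 motifs were counted separately, and matches of 1 motif may share letters, as 2 of the 3 GC boxes printed for Zfp740 share a C. A match is a match of letters in this window and no more.

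The members were low on the whole, with a median of 3.42 FPKM. Between 2 and 3 FPKM lay 43 of them, and 23 were above 5 FPKM. Zfp706, which encodes a short protein of 76 residues with 1 run, was the highest at a mean of 25.7 FPKM. Its 12 libraries ran from 23.1 to 29.9 FPKM with the 4 group means between 25.1 and 26.1 FPKM, so that the groups overlapped throughout. Next came Zfp651 (17.9 FPKM), Zfp970 (16.9), the ribosome maturation factor Zfp622 (12.7), Zfp91 (12.2), Zfp768 (11.3), Zfp358 (9.03) and Zfp445 (8.80), a KRAB protein of imprint maintenance. The non-IR libraries of Zfp651 (15.7 to 19.8 FPKM) and Zfp970 (17.6 to 26.1 FPKM) overlapped, so the order of these genes by level is uncertain. The non-IR ranges of Zfp622, Zfp91 and Zfp768 overlapped with each other too (10.8 to 12.7, 10.1 to 13.4 and 10.1 to 14.6 FPKM). These ranges set genes beside each other and say nothing of IR against non-IR hearts. KRAB members had a median level of 2.73 FPKM, against 3.49 for the many-fingered and 3.58 for the few-fingered class.

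Levels varied little between groups. The ratio of the highest to the lowest of a member's 4 group means had a median of 1.23 and a maximum of 1.92, and for 87 members it was under 1.5.

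The first question was what IR changed in C57BL/6J hearts. On the log2(FPKM + 1) scale, 72 of 100 members were lower and 28 higher in C57-IR than in C57-non-IR hearts, with a median log2 fold change of -0.07. Of the 23 members above 5 FPKM, 14 were lower, with a median of -0.014. Among 8427 tested protein-coding genes with at least 2 FPKM, 44.9% were lower and the median was 0.02. No member passed an adjusted p of 0.05 in limma's test (Benjamini-Hochberg over 15240 genes), where 0.407% of all genes tested were called higher and 0.0525% lower (0.459% in all). At an unadjusted p under 0.05, 10 members were lower and 1 higher, against backgrounds of 4.42% and 4.55% (8.96% in either direction). All 3 IR libraries lay below all 3 non-IR libraries for 14 members and above them for 4, against 7.01% and 6.75% of genes.

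In Slit2-Tg hearts, 71 members were lower and 29 higher after IR, with a median log2 fold change of -0.14. Among the 23 members above 5 FPKM the signs were near even, with 11 lower and a median of 0.0063, against 0.0053 for all genes tested. By comparison 43.3% of the expressed protein-coding genes and 48.4% of all genes tested were lower. Again 0 members had an adjusted p under 0.05 by limma (backgrounds 0.446% higher, 0.0787% lower and 0.525% in all), with a smallest adjusted p of 0.0575, for Zfp809. At an unadjusted p under 0.05, 21 members were lower and 2 higher, against 5.07% and 6.15% of all genes tested. Groups separated downward for 28 members and upward for 2, against 8.3% and 8.65%. Without Slit2-IR replicate 1, 74 members were lower, with a median of -0.13, and 0 had an adjusted p under 0.05 by limma. Adding the replicate number to the fit as a block raised the calls over all genes from 68 higher and 12 lower to 163 higher and 39 lower, and 0 members were called.

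Over both genotypes together (the mean of the 2 IR differences, 6 libraries against 6), 74 members were lower and 26 higher, with a median log2 fold change of -0.10, against 42.8% lower and a median of 0.02 among the expressed protein-coding genes. In limma's test 2 members passed an adjusted p of 0.05, Zfp809 and Zfp740, and both fell. Of all genes tested, 2.34% were called higher and 1.15% lower, and the count of members depended on the scaling. With total-read scaling 10 members were called, all lower, where 290 of the 15240 genes were called higher and 341 lower. With median-centred libraries 9 members were called, all lower, beside 312 genes higher and 315 lower, against 356 and 176 in the scaling reported here. At an unadjusted p under 0.05, 26 members were lower and 5 higher, where the background was 7.97% lower and 7.93% higher. An adjusted p under 0.1 was reached by 12 members, 11 of them lower. The share of all genes at that limit was not counted, so this is a description only. Of the 23 members above 5 FPKM, 14 were lower, with a median of -0.028. Without Slit2-IR replicate 1 the median was -0.10, with 76 members lower. The 2 called were then Zfp809 and Zfp526, and Zfp740 no longer was. In the ranked plot the 5 members with the highest values all had 0 to 3 runs.

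**Figure D1:**
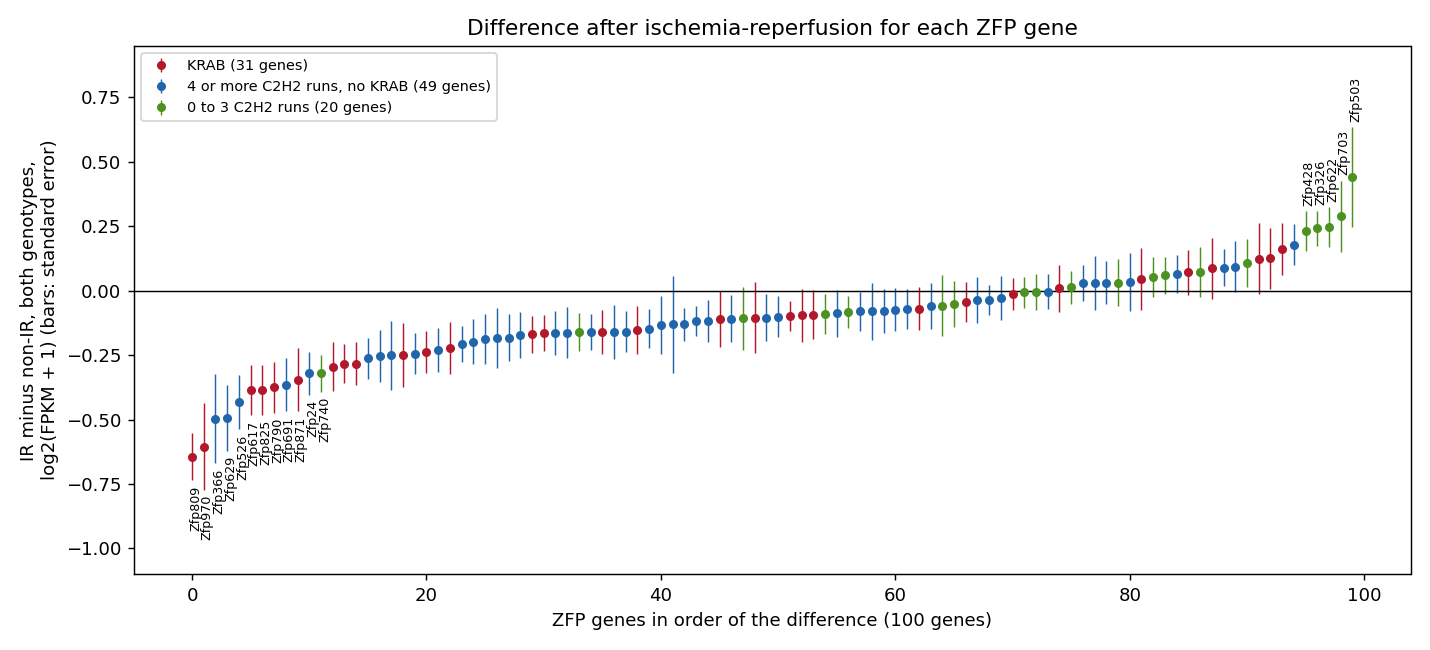
Difference after IR for the 100 ZFP genes over both genotypes, ordered from lowest to highest. Points are differences in log2(FPKM + 1) between 6 IR and 6 non-IR libraries, bars are standard errors and colours are the 3 protein classes. The points lie below 0 for 74 genes, with Zfp809 lowest (-0.64) and Zfp503 highest (0.44).

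Zfp809 is a KRAB protein that silences proviruses of the murine leukemia virus type (ENSMUSG00000057982, GRCm38 chromosome 9 from 22225714 to 22243354, 7 C2H2 runs). Its C57-non-IR libraries had 6.57, 5.63 and 5.74 FPKM and its C57-IR libraries 4.07, 2.79 and 3.76 FPKM. Slit2-non-IR libraries had 4.62, 5.99 and 6.18 FPKM, and Slit2-IR libraries 2.91, 3.31 and 3.26 FPKM. Every IR library lay below every non-IR library, at 3.35 ± 0.488 against 5.79 ± 0.660 FPKM (SD, n = 6 each). The log2 fold change was -0.64 with a standard error of 0.09, and limma's adjusted p was 0.00419. In each genotype alone the log2 fold change was -0.63 and -0.66, with limma adjusted p-values of 0.0784 and 0.0575.

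Zfp740, a small protein with 2 runs (ENSMUSG00000046897, chromosome 15 from 102203648 to 102215606), had 8.71, 8.99 and 9.02 FPKM in C57-non-IR and 6.89, 7.12 and 6.91 FPKM in C57-IR libraries. The Slit2-non-IR libraries had 8.29, 10.7 and 8.55 FPKM and the Slit2-IR libraries 6.34, 7.38 and 7.56 FPKM. Here too all 6 IR libraries were below all 6 non-IR libraries. The log2 fold change was -0.32 (standard error 0.07, limma adjusted p = 0.0360), and leaving out 1 library ended the call in 9 of 12 cases. The adjusted p in limma's test was at most 0.0874, without C57-non-IR replicate 2, and 0.0819 without Slit2-IR replicate 1. The call held without C57-IR replicate 1, Slit2-non-IR replicate 1 or Slit2-IR replicate 3.

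With these, 4 members had all 6 IR libraries below all 6 non-IR libraries and 0 had them above, against backgrounds of 1.17% and 2.23% of genes. Zfp629, with 19 runs on chromosome 7, ranged from 3.52 to 4.997 FPKM (median 4.005) in non-IR and from 1.79 to 3.25 FPKM (median 2.81) in IR libraries. Its log2 fold change was -0.49 with a standard error of 0.13 and a limma adjusted p of 0.0636. Zfp24, a SCAN domain protein on chromosome 18, ranged from 4.15 to 5.24 FPKM (median 4.96) and from 3.01 to 4.11 FPKM (median 3.79), a log2 fold change of -0.32 with a limma adjusted p of 0.0633. Counted within each genotype, 6 members separated downward in both and 1, Zfp622, upward in both. These 6 were Zfp809, Zfp740, Zfp629, Zfp24, Zfp251 and Zfp263. The share of all genes that separated in both genotypes was not counted, so the 6 and the 1 are a description only.

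Zfp970 had the second lowest value of the 100, with -0.60 on the log2 scale, a standard error of 0.17 and a limma adjusted p of 0.0824. It ranged from 17.6 to 26.1 FPKM in non-IR and from 9.43 to 18.3 FPKM in IR libraries, and Slit2-IR replicate 2 with 18.3 FPKM lay within the non-IR range. This KRAB gene shares 49.7% of its 50-base transcript words with other annotated genes, so its reads are uncertain. The same measure was 51.1% for Zfp971, also on chromosome 2, 42.2% for Zfp617 and 29.5% for Zfp825, and the median over members was 0.478%. Zfp617 (log2 fold change -0.38, limma adjusted p = 0.0595) and Zfp825 (-0.38, 0.0570) did not pass the threshold. Zfp825 had 3.04 ± 0.394 and 1.75 ± 0.325 FPKM in C57BL/6J hearts without and with IR, and 2.40 ± 0.611 and 1.91 ± 0.202 FPKM in Slit2-Tg hearts (SD, n = 3). Its interaction had a limma adjusted p of 0.9998.

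Zfp366, known as DC-SCRIPT and a corepressor of nuclear receptors, ranged from 3.83 to 6.34 FPKM without and from 2.32 to 5.28 FPKM with IR. Its log2 fold change was -0.50 and its limma adjusted p 0.168, and in each genotype the replicate 3 library after IR lay above the lowest library without IR. Zfp526 (1.86 to 3.07 against 1.23 to 2.22 FPKM, log2 fold change -0.43) had a limma adjusted p of 0.0527. Zfp790, a KRAB gene, had -0.38 (adjusted p 0.0683 in limma's test), Zfp691 had -0.36 (0.0894) and Zfp871 had -0.35 (0.178).

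The members with the highest positive values did not pass the threshold in limma's test. Zfp503, a corepressor of the NET family without the C2H2 pattern (0 runs), had C57-non-IR values of 3.11, 1.37 and 1.29 FPKM and C57-IR values of 2.47, 2.39 and 2.58 FPKM. Its Slit2-non-IR values were 1.42, 1.42 and 1.92 FPKM and its Slit2-IR values 4.43, 3.22 and 1.47 FPKM, so the groups overlapped in both genotypes. The log2 fold change over both was 0.44 with a standard error of 0.19 (limma adjusted p = 0.295). Its relative Zfp703, of the same family, had 5.07 to 6.90 FPKM without and 4.85 to 9.58 FPKM with IR (log2 fold change 0.29, limma adjusted p = 0.352).

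Zfp622, which acts in maturation of the large ribosomal subunit, had C57-non-IR libraries at 12.7, 11.02 and 11.4 FPKM and C57-IR libraries at 12.8, 13.8 and 13.4 FPKM. Its Slit2-non-IR libraries were at 11.9, 10.8 and 11.1 FPKM and its Slit2-IR libraries at 17.2, 13.4 and 12.6 FPKM. Within each genotype the groups did not overlap, and the log2 fold change over both was 0.25 (standard error 0.08, limma adjusted p = 0.126). The highest value came from Slit2-IR replicate 1, the library with the high atrial markers. Zfp326, a subunit of the DBIRD complex that links RNA polymerase II with splicing, had 1.59 to 2.07 FPKM without and 1.93 to 2.57 FPKM with IR, a log2 fold change of 0.24 with a limma adjusted p of 0.0852. Zfp428 had 6.76 to 9.27 against 8.93 to 10.2 FPKM (log2 fold change 0.23, limma adjusted p = 0.145). Zfp131, a BTB protein, had 4.49 to 5.51 against 4.80 to 6.33 FPKM (0.18, 0.313).

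**Figure D2:**
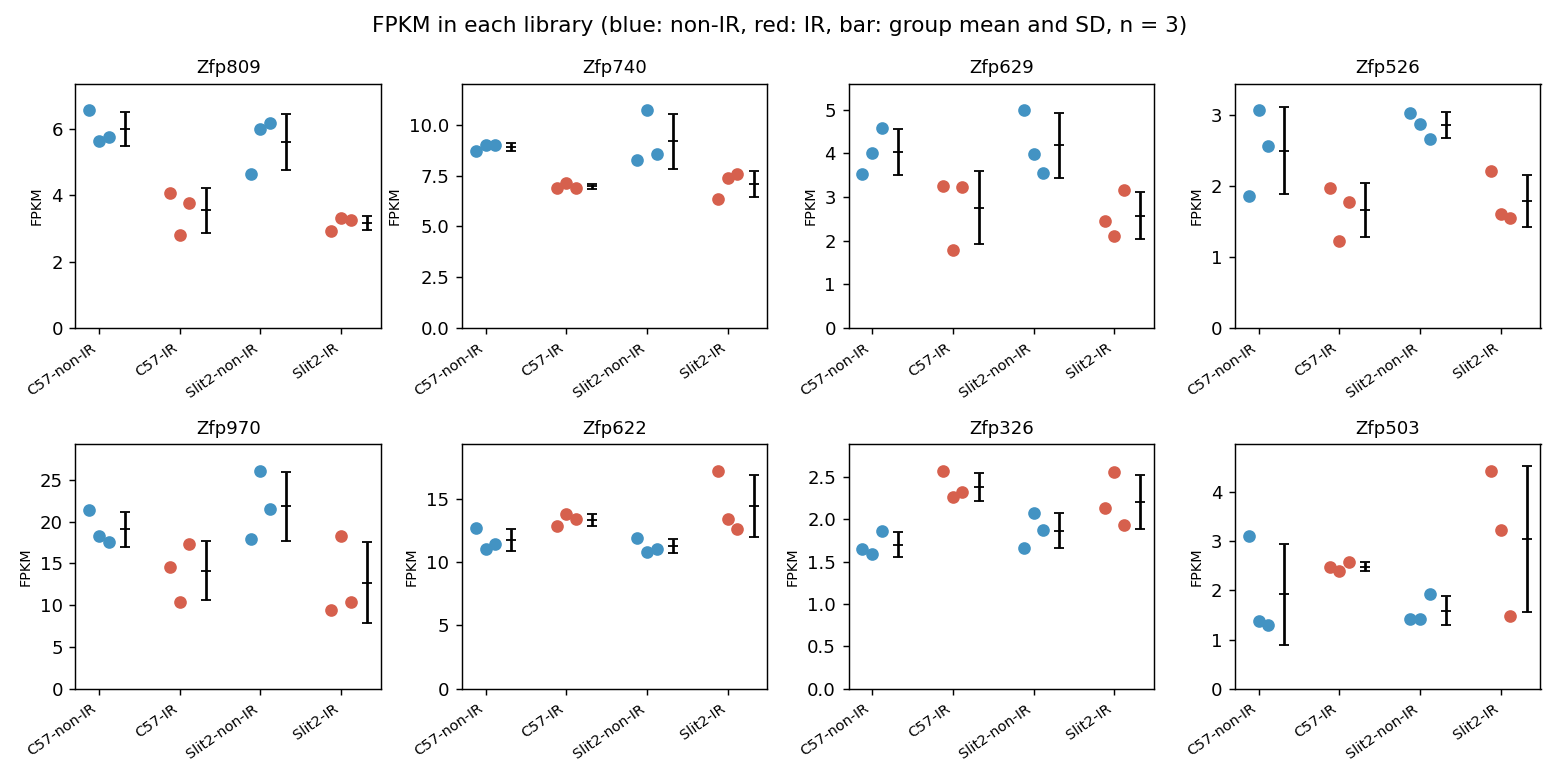
FPKM of 8 ZFP genes in each of the 12 libraries, by group, with the group mean and SD (n = 3) beside the points and the vertical axes starting at 0. IR points lie below non-IR points without overlap for Zfp809, Zfp740 and Zfp629, and above them within each genotype for Zfp622.

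The values also ran with the protein class, which is given as a description. Of 31 KRAB members, 24 were lower with IR over both genotypes, with a median log2 fold change of -0.15, and 13 had an unadjusted p under 0.05, all lower, where 7.97% of all genes tested were lower and 7.93% higher at that p. Of 49 many-fingered members without KRAB, 41 were lower (median -0.13), with 12 lower and 1 higher at that p. Of 20 few-fingered members, 9 were lower (median 0.02, and -0.05 with total-read scaling), with 1 lower and 4 higher. The 4 were Zfp503, Zfp622, Zfp326 and Zfp428. No test was run between classes, since they were drawn up with the values known. In Slit2-Tg hearts alone the KRAB median was -0.20, and -0.15 without Slit2-IR replicate 1. Over both genotypes without that library the KRAB median was -0.09 with 24 members lower, the many-fingered median -0.13 and the few-fingered median 0.00.

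**Figure D3:**
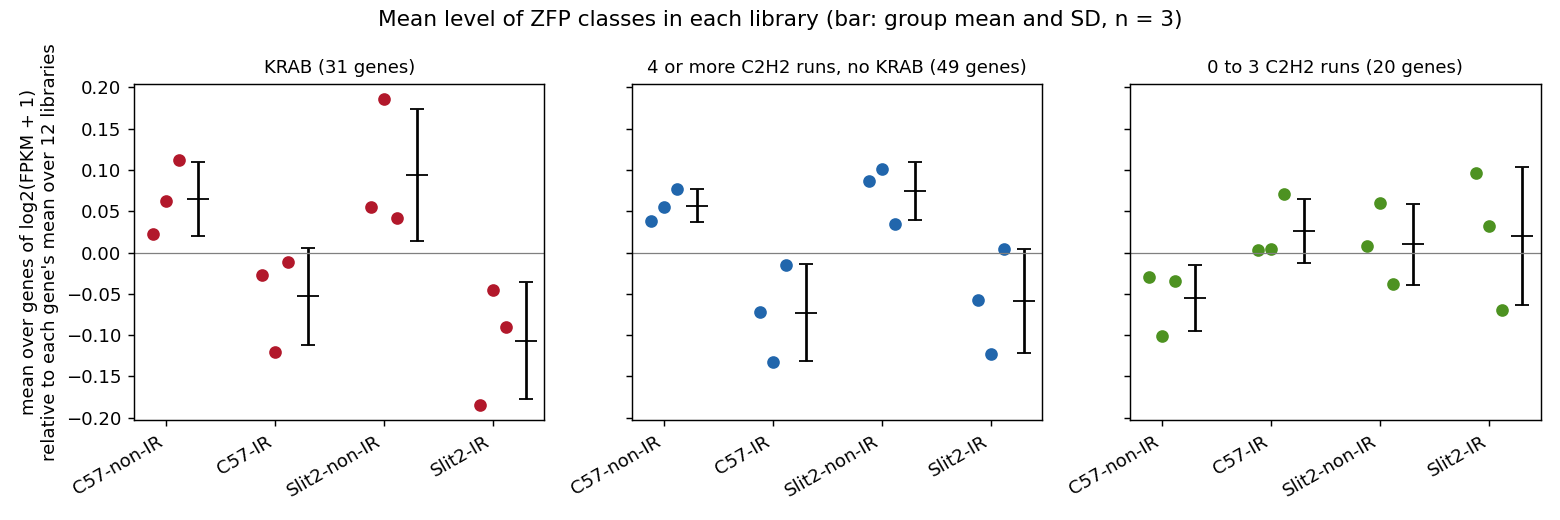
Mean over the genes of each protein class of log2(FPKM + 1) minus the gene's own average of the 12 libraries, 1 point per library, with the group mean and SD (n = 3). In the KRAB panel the 6 non-IR libraries lie between 0.02 and 0.19 and the 6 IR libraries between -0.18 and -0.01, while the groups overlap in the few-fingered panel.

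Per library, the mean of the KRAB class relative to each gene's average was 0.02, 0.06 and 0.11 in C57-non-IR and 0.05, 0.19 and 0.04 in Slit2-non-IR hearts. After IR it was -0.03, -0.12 and -0.01 in C57BL/6J and -0.18, -0.05 and -0.09 in Slit2-Tg hearts. All 6 non-IR libraries were above all 6 IR libraries, and Slit2-IR replicate 1 was the lowest. The many-fingered class had 0.04 to 0.10 in non-IR and -0.13 to 0.00 in IR libraries and did not overlap either. In the few-fingered class the ranges were -0.10 to 0.06 and -0.07 to 0.10.

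Across members, the number of C2H2 runs and the IR difference had a Spearman's rho of -0.40 over the 100 genes and of -0.46 over the 69 without KRAB. Mean level (0.15), gene length (0.05), genomic span (0.08), exon number (0.23) and length of the 3′ untranslated region (-0.10) had smaller values. These are correlations across genes measured in the same libraries, and genes are not independent replicates.

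**Figure D4:**
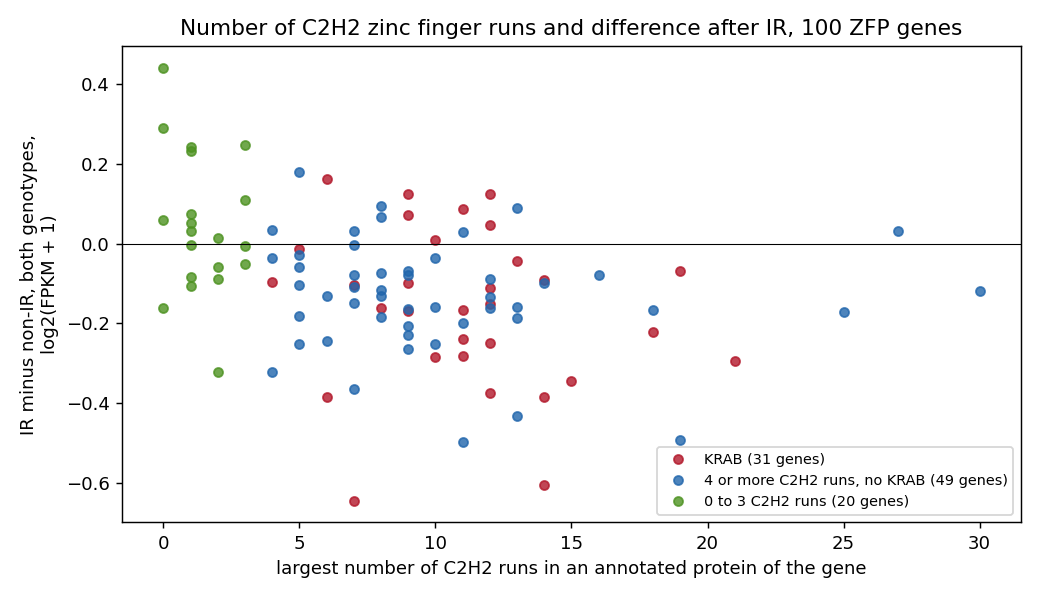
Number of C2H2 runs of each ZFP gene (horizontal axis) and its difference after IR over both genotypes in log2(FPKM + 1) (vertical axis), coloured by protein class. The points with 0 to 3 runs lie on both sides of 0, and most points with 4 or more runs lie below it (Spearman's rho -0.40 over 100 genes).

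The IR comparisons of the 2 genotypes share no library. Lower in both were 59 members and higher in both 16, while 25 had opposite signs. Of all genes tested, 31.5% were lower in both and 33.6% higher in both, and of the expressed protein-coding genes 26.7% and 38.4%. Pearson's r between the 2 IR differences was 0.67 over the members and 0.81 over the expressed protein-coding genes, given as a description across genes. No member separated in opposite directions in the 2 genotypes.

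**Figure D5:**
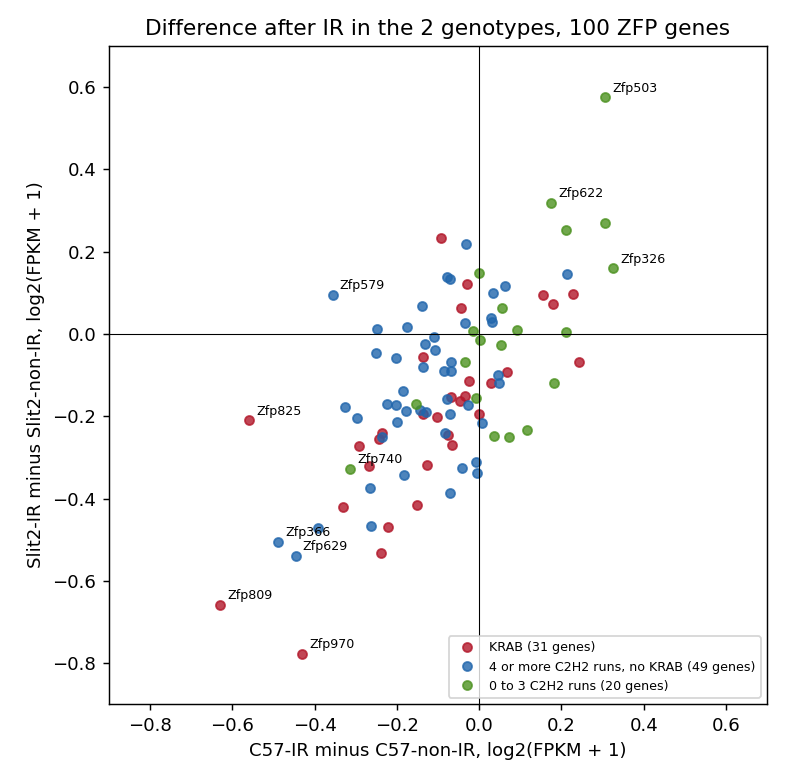
IR difference in log2(FPKM + 1) in C57BL/6J hearts (horizontal axis) and in Slit2-Tg hearts (vertical axis) for the 100 ZFP genes, coloured by protein class. The lower left quadrant holds 59 genes and the upper right 16, and Zfp809 lies at -0.63 and -0.66.

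Other members with known roles did not pass the threshold. Zfp445, the imprint-maintenance KRAB protein, had 8.10 to 13.4 FPKM without and 6.58 to 9.49 FPKM with IR (log2 fold change -0.25, limma adjusted p = 0.381). Zfp568, a KRAB repressor of a placental Igf2 promoter, had a log2 fold change of 0.09 (adjusted p 0.816 in limma's test). Zfp110, a KRAB partner of the neurotrophin receptor, had -0.01. Among promoter factors, Zfp143 had -0.08, Zfp148 had -0.04, Zfp281 had 0.11 and Zfp384 had 0.07. The spindle factor Zfp207 had -0.06, the spliceosome protein Zfp830 -0.08, the double-stranded RNA binder Zfp346 0.03, Zfp335 of a histone methyltransferase complex 0.09, the nucleolar Zfp330 0.06, the EBF1 partner Zfp521 0.03 and Zfp91 -0.03. None of these 14 had an unadjusted p under 0.05 over both genotypes.

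Chromosome 7 carried 22 of the 100 members, against 7.13% of the expressed protein-coding genes, and 19 of the 22 were lower with IR. Over all 100 members 74 were lower, and the counts by position are to be read against that share. Within 500 kb of each other on the same chromosome lay 19 pairs of neighbouring members, formed by 31 genes. In 13 pairs both genes were lower with IR, in 1 (Zfp868 and Zfp869 on chromosome 8) both were higher, and in 5 the signs differed. Some pairs share a gene, and whether neighbours moved together was not tested. On chromosome 7, Zfp790 (-0.38), Zfp27 (-0.29) and Zfp383 (-0.24) were neighbouring members from 29816114 to 29916813. The next member of that stretch, Zfp568, had 0.09, and Zfp260 after it -0.16. An annotated gene overlapped 38 members, 32 of them on the opposite strand, and reads of such pairs are uncertain because the use of strand is not stated.

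The corepressor machinery that KRAB proteins recruit was followed in 26 genes. None passed the adjusted threshold of limma's test over both genotypes, 16 were lower and 10 higher, the median log2 fold change was -0.02 and 1 had an unadjusted p under 0.05 (backgrounds 3.49% adjusted and 15.9% unadjusted in either direction). Trim28, the KRAB corepressor itself, had 11.7 FPKM without and 12.7 FPKM with IR on average (log2 fold change 0.10, limma adjusted p = 0.574). Setdb1, the histone methyltransferase that TRIM28 recruits, had -0.13 and its cofactor Atf7ip -0.14, with limma adjusted p-values of 0.433 and 0.460. Fam208a, the HUSH subunit TASOR, was the gene under the unadjusted threshold, with -0.15 and a limma adjusted p of 0.216, and its partners Mphosph8 and Pphln1 had -0.10 and 0.13. The others, Cbx1, Cbx3, Cbx5, Chd3, Chd4, Hdac1, Hdac2, Dnmt1, Dnmt3a, Uhrf1, Atrx, Daxx, Smarcad1, Morc3, Trim24, Trim33, Ehmt1, Ehmt2, Suv39h1 and Suv39h2, lay between -0.13 and 0.12.

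Of the 264 ZFP genes under 2 FPKM, 214 passed the filter on low values, and over both genotypes 191 of the 214 were lower, with a median log2 fold change of -0.13. Differences of low genes are understated on this scale. The median of the 214 was -0.33 with a pseudocount of 0.1 and -0.38 with limma-voom. At a pseudocount of 0.1 the members had medians of -0.21 (KRAB), -0.16 (many-fingered) and 0.03 (few-fingered). In limma's test 38 of the 214 were called lower and 2 higher at an adjusted p of 0.05, against 1.15% and 2.34% of all genes tested. The 3 largest falls among them were Zfp189 (-0.59, adjusted p 0.0249), Zfp870 (-0.54, 0.00883) and Zfp35 (-0.54, 0.01997). The 2 called higher were Zfp948 (0.85, limma adjusted p = 0.00578) and Zfp977 (0.25, 0.0360), both KRAB genes. Zfp948 had 0.609 to 1.53 FPKM without and 2.04 to 3.53 FPKM with IR. With at least 10 reads in every library 176 of the genes under 2 FPKM were tested, of which 159 were lower and 36 called lower. Of all 13173 genes tested in that setting, 176 were called lower. With a pseudocount of 0.1 also 36 were called lower, beside 172 of all 15240 genes. Without Slit2-IR replicate 1 the count called lower was 21, while that over all genes tested went from 176 to 91. Other zinc finger families were read against the same shares of all genes. The 23 tested Zfp genes with a letter suffix had a median of -0.16 with 20 lower and 2 called lower. The 18 Zkscan and Zscan genes had -0.14 with 14 lower and 3 called lower, and the 39 Zbtb genes -0.13 with 30 lower, 7 called lower and 2 called higher. For none of these was the difference from the members tested.

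Between genotypes without IR, 63 members were higher and 37 lower in Slit2-Tg than in C57BL/6J hearts, with a median log2 fold change of 0.03. Of all genes tested 51.1% were lower, with a median of -0.003, which was 0.022 with total-read scaling. No member passed the adjusted threshold of limma's test, and 0 had an unadjusted p under 0.05. The backgrounds were 0.0394% for adjusted calls in either direction and 3.19% for unadjusted ones (1.42% higher, 1.77% lower). The members spread from -0.26 (Zfp825) to 0.28 (Zfp395). All 3 Slit2-non-IR libraries were above all 3 C57-non-IR libraries for 3 members, against 4.63% of genes, and below them for 0, against 4.57%. They were Zfp395, at 4.001 ± 0.565 against 3.10 ± 0.174 FPKM, Zfp609, at 4.31 ± 0.106 against 3.53 ± 0.475 FPKM, and Zfp148, at 3.42 ± 0.0766 against 2.99 ± 0.235 FPKM (SD, n = 3).

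After IR, 59 members were lower and 41 higher in Slit2-Tg than in C57BL/6J hearts, where 50.1% of all genes tested were lower. The median log2 fold change was -0.03, and it was -0.01 without Slit2-IR replicate 1 and 0.03 with total-read scaling. None had an adjusted p under 0.05 by limma, and 2 were lower and 1 higher at an unadjusted p under 0.05 (backgrounds 0.0459% for adjusted calls, 0.0328% of them higher, and 1.38% lower, 1.78% higher and 3.16% in all unadjusted). The higher one was Zfp362, at 3.86 ± 0.218 against 3.18 ± 0.208 FPKM. The 2 lower ones were Zfp62, at 3.17 ± 0.470 against 4.12 ± 0.471 FPKM, and Zfp397, at 1.98 ± 0.277 against 2.62 ± 0.531 FPKM (SD, n = 3). Groups separated upward for Zfp362 and Zfp523 (background 3.03%) and downward for Zfp62, Zfp1 and Zfp266 (background 3.44%). Among KRAB members 24 of 31 were lower, with a median of -0.08, which became -0.01 with 20 lower without Slit2-IR replicate 1. The largest difference upward was that of Zfp579, 2.54 ± 1.57 against 1.48 ± 0.438 FPKM, or 0.44 on the log2 scale (standard error 0.27, limma adjusted p = 0.9996). Slit2-IR replicate 1 held the highest of these values, 4.35 FPKM.

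Whether IR acted differently in the 2 genotypes was tested as an interaction. The IR difference was lower in Slit2-Tg than in C57BL/6J hearts for 65 members (median -0.038), against 48.9% of all genes tested. Without Slit2-IR replicate 1 this was 58 members (median -0.035). Of the 31 KRAB members it was 25 (median -0.10), and 21 (median -0.06) without that library. These counts over members are a description, and the test was run on each gene. No member had an adjusted p under 0.05 in limma's test (smallest 0.9998) and 0 had an unadjusted p under 0.05, against a background of 1.86% (1.08% higher, 0.787% lower). The interaction ranged from -0.35 (Zfp207 and Zfp970) to 0.45 (Zfp579) on the log2 scale, with standard errors of 0.24, 0.34 and 0.38 for these. For Zfp809 the interaction was -0.03 with a standard error of 0.18.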

How the data were processed

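RNA from 12 perfused mouse hearts (4 groups of 3) was sequenced with paired-end reads. The authors deposited FPKM values of each gene and library, together with its length, symbol and mm10 coordinates. The submitters' processing notes name HISAT2 and mm10, while how reads were counted, on which annotation release and whether by strand is not given in the sources used here. Multiplying FPKM by length gave whole steps per library for 100% of values (tolerance 0.05), so reads could be recovered, and the steps followed median-of-ratios size factors.

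FPKM is not a count, so log2(FPKM + 1) was tested with limma (moderated, with a mean-variance trend) in 1 fit of 4 group means and 12 libraries without covariates. Tested were 15240 genes that reached 10 reads at median depth in 3 or more libraries and 15 reads over all 12, and all 100 members passed. Benjamini-Hochberg adjustment ran over these genes in each of 6 contrasts, with a threshold of 0.05. Fold changes on this scale understate those of low genes. The p-values measure the spread between 3 libraries per group. Pairs of libraries in a group differed by more than counting noise (chi-square per gene 8.67 to 54.6). An exact permutation of 3 against 3 cannot give a p below 0.1, so none is given.

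Members, lists and tests were chosen with earlier results of these data known. Members were named by a rule: an adjusted p under 0.05, the 6 largest rises and falls of a contrast, the 8 highest levels, 3 on each side of the threshold, or a known role, which gave 55 genes. Others were chosen after their values were seen. Deviations of same-numbered libraries from their group means were correlated. All 3 pairs were above 0.1 for Slit2-IR against Slit2-non-IR (0.143 to 0.294) and Slit2-IR against C57-IR (0.154 to 0.362). In the other comparisons 1 pair was lower, at 0.0833 and 0.0377. By replicate, the pair of replicate 1 lay at 0.285 to 0.324 in every comparison. In each group, replicate 1 differed more from replicates 2 and 3 (chi-square per gene) than these did from each other. The labels name no shared batch, so the pairing rests on these correlations.

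C2H2 runs are matches of C, 2 to 4 residues, C, 12 residues, H, 3 to 5 residues, H in proteins translated from GENCODE M21 basic coding sequences, at the highest number over a gene's proteins. KRAB stretches were found with a profile built from 272 genes (MAFFT 7.526, HMMER 3.4, E under 0.001). The share of 50-base words was counted over all annotated transcripts. Alternatives were a pseudocount of 0.1, other filters, other scalings, a fit of 6 libraries, the replicate block, limma-voom on recovered reads and leaving out each library. Other member thresholds and a robust prior variance were chosen after seeing the data. The model was also tested on simulated data. The tools were limma 3.58.1 in R 4.3.3, and pandas 2.3.3 and matplotlib 3.10.9 in Python 3.11.15.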

Additional observations from a re-analysis of the deposited data

How the results depend on the processing

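Over both genotypes, Zfp809 passed the adjusted threshold of limma's test under all 21 alternatives (adjusted p 0.00243 to 0.0146) and Zfp740 under 11 of 21 (0.0199 to 0.0874). The count of members called, 2, became 1 with genes of 1 read or more, 4 with at least 10 reads in every library, 10 with total-read scaling, 9 with mitochondrial genes left out of it, 9 with median-centred libraries, 6 with limma-voom on recovered reads, 15 at a member threshold of 1 FPKM and 1 at 5 FPKM. It was 6 with the replicate number as a block, a pairing that was not seen in all 3 pairs of every comparison, and 1 to 6 without 1 library. It was 6 without Slit2-IR replicate 3 and 5 without C57-IR replicate 1. Over all genes tested, 330 were called higher and 176 lower with 10 reads in every library, and 277 and 305 with mitochondrial genes left out. These counts were 404 and 186 with limma-voom, 518 and 255 with the block, and 345 and 172 or 533 and 180 without those 2 libraries. A threshold of 1 FPKM adds genes to the list and 5 FPKM leaves 23, so these 2 counts have other bases. Of the values of single genes under these alternatives, 1405 kept direction and side of the threshold, 50 passed it, 10 no longer did and 0 changed sign. In Slit2-Tg hearts the count of 0 became 1 with at least 10 reads in every library and with limma-voom (Zfp809 both times) and at 1 FPKM, and was 0 to 1 without 1 library (Zfp809 without C57-IR replicate 1 or 2, Zfp617 without Slit2-IR replicate 3). In C57BL/6J hearts it was 0 to 1 without 1 library (Zfp809 without C57-IR replicate 1). The replicate block changed no other count of members.

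The median log2 fold change of members moved with scaling, which shifted the median of all genes by at most 0.07, and with the member threshold. With total-read scaling, total-read scaling without mitochondrial genes and median-centred libraries, it was -0.16, -0.14 and -0.11 in C57BL/6J hearts, -0.21, -0.22 and -0.19 in Slit2-Tg hearts, and -0.17, -0.17 and -0.14 over both. With limma-voom it was -0.18 in Slit2-Tg hearts and -0.14 over both. At 5 FPKM it was -0.014 in C57BL/6J hearts, 0.0063 in Slit2-Tg hearts and -0.028 over both, and 0.015 for Slit2-IR against C57-IR, which was 0.025 with total-read scaling. Without 1 library that last median ran from -0.033 to 0.010 and the interaction's from -0.079 to -0.019. Across all settings the few-fingered median over both genotypes ran from -0.05 to 0.04, and the KRAB median from -0.22 to -0.09. A fit of 6 libraries was not run for the pooled effect and the interaction, which use all 12. Calls over all genes moved by over 1.5 times under several settings. In C57BL/6J hearts 62 higher and 8 lower became 6 and 1 with 1 read or more, 35 and 8 with total-read scaling, 35 and 5 with mitochondrial genes left out, 9 and 0 with 6 libraries, 143 and 31 with the block and 30 and 2 with limma-voom. Leaving out 1 library gave 3 and 0 (without C57-non-IR replicate 2 or 3 or C57-IR replicate 3) to 235 and 19 (without C57-IR replicate 1). In Slit2-Tg hearts 68 and 12 became 13 and 6, 40 and 13, 37 and 13, 55 and 5, 163 and 39, and 102 and 19 in that order, 85 and 23 with 10 reads in every library and 65 and 23 with median-centred libraries. Leaving out 1 library gave 4 and 0 (without Slit2-IR replicate 2) to 150 and 30 (without C57-IR replicate 1). Over both, 356 and 176 became 227 and 72 with 1 read or more, and 238 and 91 (without C57-non-IR replicate 3) to 533 and 180 (without C57-IR replicate 1).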
